A study of Danio rerio with 16 samples.

Results

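The 16 whole-larva RNA samples of this zebrafish study were prepared in 2 ways, and the comparison here is between them. For 8 samples (replicates 1 and 2 of each condition, prepared on day 1) lysis buffer was added to all the frozen samples first, and homogenization followed. For the other 8 (replicates 3 and 4, prepared on day 2) each sample was homogenized directly after its buffer was added. The 8 and 8 make up all 16 samples, and the samples were assigned by replicate number and not by any measured value. Each day held 2 samples of each of 4 conditions: klf9-/- larvae in cortisol, wild-type (WT) larvae in cortisol, klf9-/- larvae in vehicle and WT larvae in vehicle. The klf9-/- line carries a homozygous CRISPR-Cas9 frameshift in exon 1 of klf9, a gene for a zinc-finger transcription factor that glucocorticoids induce, derives from 1 founder female, and is, like the WT larvae, on the AB strain. Cortisol was given at 1 µM, and vehicle was DMSO, from about 4 h after fertilization. All larvae were 5 days old and were frozen over 22 min, 3 h after lights-on of a 14/10 h light-dark day. Each sample was a pool of 10 larvae, and the 4 pools of a condition came from 1 dish, so that p-values measure the spread between these pools. Preparation day, the delay before homogenization, and replicate number with its place in the collection cannot be told apart in this design. How long the day 1 samples stood in buffer is not given in the sources used here.

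Homogenization breaks tissue apart so that its RNA is released into a denaturing buffer that stops RNases. In a whole larva, soft organs such as brain and retina lie inside layers of skin, muscle and skeletal matrix. Transcripts made mainly in 1 cell type can mark RNA from that tissue. Tissue markers were collected in 26 lists, from neurons to pigment cells, and 13 further lists held genes of processes such as translation or the circadian clock. Lists and members were chosen with earlier results of these data known. Their counts therefore describe these data and are not an independent test. In bulk RNA, fewer cells of a type and less RNA per cell cannot be told apart. Some list members are made in more than 1 tissue, and several lists held members that moved in opposite directions. A list median is therefore not a measure of that tissue's RNA alone. Why members of 1 list differed was not tested.

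The values are normalized counts that were forced to the same distribution in every sample, so that each sample summed to 14653434 and the sequencing depth is unknown. At the top of that distribution, values come in steps. A move from 1 step to another, such as 71716 to 121468, can make the log2 difference of an abundant gene large. In each of the 16 samples 10 genes shared the highest value of 187032, and 11 abundant genes, among them the keratin gene krt4, the muscle actin gene actc1b, the creatine kinase gene ckma and MT-CO1, had 1 identical value in all 16 samples and could not be tested. The targeted gene KLF9 followed the genotype labels on both days. Its normalized counts in replicates 1 to 4 were 106, 134, 136 and 111 in klf9-/- cortisol larvae, against 330, 511, 354 and 340 in WT cortisol larvae, and 135, 78, 100 and 111 in klf9-/- vehicle larvae, against 274, 250, 243 and 165 in WT vehicle larvae. Its day difference (log2, day 1 minus day 2) was 0.14 (SE 0.13, limma adjusted p = 0.36). Defining markers of brain, retina, lens, muscle, skin, liver, gut and blood were all detected, in larvae labelled whole embryo. A pair of samples stood apart from their day more often than the others, klf9-/- cortisol replicate 3 only by a small margin. WT vehicle replicate 1 (day 1) scored within the day 2 range for 27 of the 39 lists, and klf9-/- cortisol replicate 3 (day 2) scored within the day 1 range for 22, against 9 to 20 lists in the other 14 samples.

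Most genes differed between the preparation days. With condition as covariate, 7032 of 21479 tested genes were higher on day 1 (32.7%) and 6514 were lower (30.3%) at a limma adjusted p under 0.05, together 13546 (63.1%). Without WT vehicle replicate 1 and klf9-/- cortisol replicate 3, these counts were 7171 and 6610. The differences were mostly modest in size. The median was 0.45 on the log2 scale among genes that were higher and -0.51 among those that were lower, and 246 genes were at least 2-fold higher against 672 at least 2-fold lower. The day accounted for a median of 36.2% of a gene's variance over the 16 samples, treatment for 11.0% and genotype for 3.08%. Of the 13546 genes called, 12002 had the same sign in all 4 conditions. That count gave a sign to some genes tied between days within a condition, such as the ribosomal protein gene RPS2 in WT vehicle larvae. The direction was not balanced among the cleanest separations. All 8 day 1 samples lay below all 8 day 2 samples for 1911 genes (8.9%), and all 8 lay above for 599 (2.79%). A pair of genes picked for their small standard errors shows each direction. ZFHX4 (a large zinc-finger homeobox factor) had 864 to 1278 normalized counts on day 1, against 1862 to 2310 on day 2, and SERPINB1 (a protease inhibitor) had 797 to 1098 on day 1, against 493 to 678 on day 2. In neither gene did the days overlap. Of the genes named in what follows, the 2 most abundant tested members of each list, the 8 largest changes in each direction and the 4 largest treatment differences in each direction were selected by rule, and the others were picked as examples after their values were seen.

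**Figure D1:**
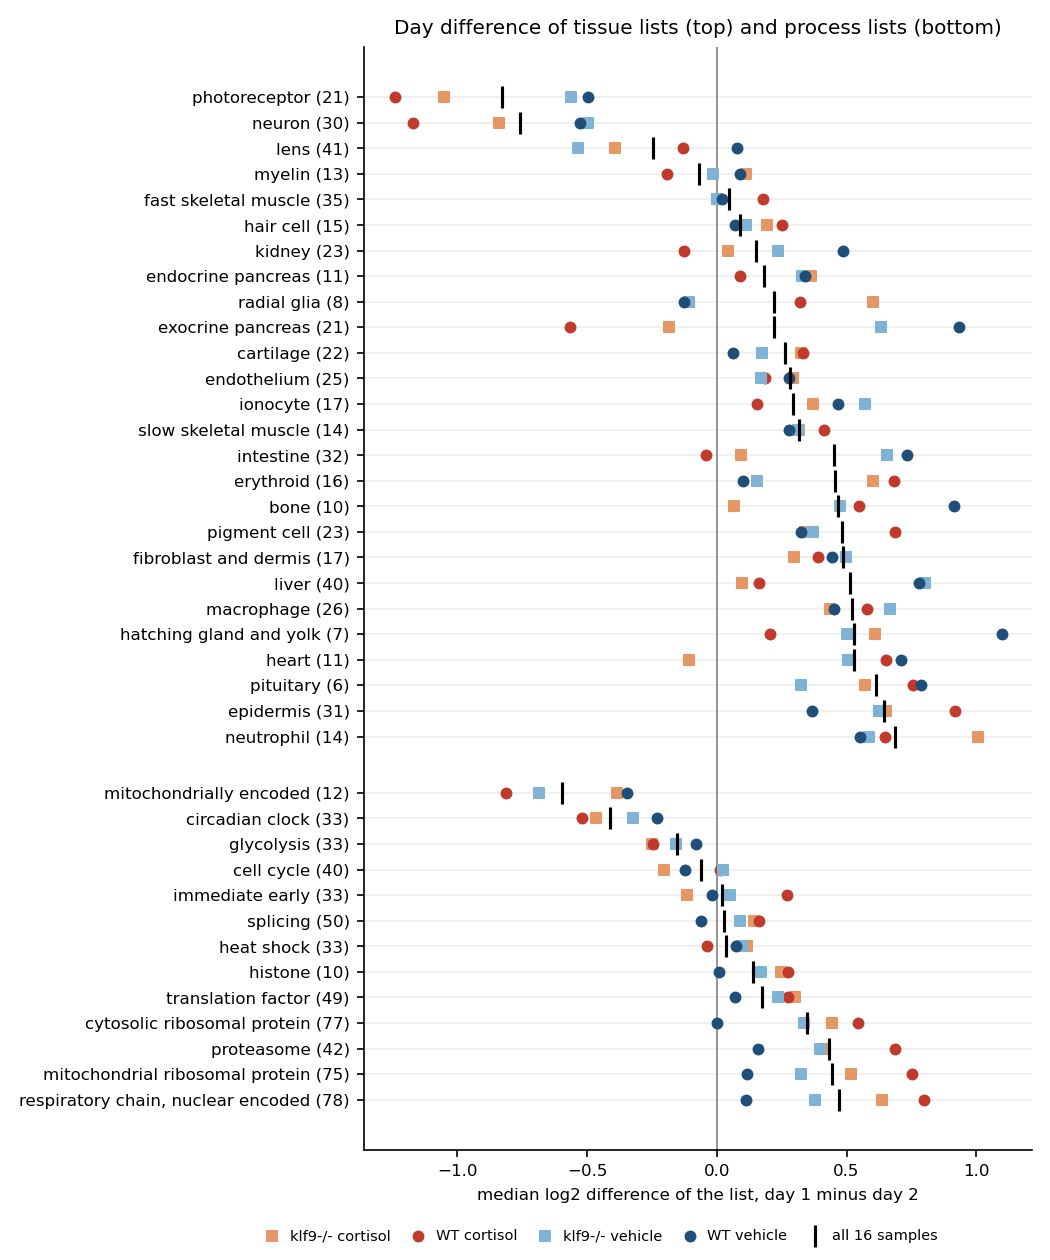
Median log2 difference of the genes of each of 39 lists, day 1 (homogenization delayed) minus day 2 (homogenized at once), with tissue lists above and process lists below. Coloured points are the medians within the 4 conditions and black ticks the median over all 16 samples. Neuron (-0.76) and photoreceptor (-0.83) genes lie furthest below 0, and liver and exocrine pancreas genes spread widely between cortisol and vehicle conditions.

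Neuron and photoreceptor genes were lower on day 1. Of 30 neuron genes tested, 29 fell and none rose, where 30.3% of all genes fell and 32.7% rose. Their median was -0.76, against 0.04 over all genes. SYT1, the calcium sensor of vesicle release, had 2216 to 3862 normalized counts (median 2612) on day 1, against 4540 to 5518 on day 2, a log2 difference of -0.81 (SE 0.09, adjusted p = 2.7e-06). Every day 1 sample was below every day 2 sample, as for 17 of the 30 neuron genes and 8.9% of all genes. GAD2, which makes the inhibitory transmitter GABA, had 630 to 2310 on day 1, against 2526 to 3860 on day 2 (-1.56). These genes separate the days in all 16 samples. The one neuron gene that did not pass the test was gap43, a growth cone gene, at -0.15 (adjusted p = 0.081). GPM6A, a neuronal membrane glycoprotein gene outside the list and among the 8 largest falls, had 9630 to 37939 on day 1, against 29412 to 71694 on day 2 (-1.79). The day 1 and day 2 ranges of the neuron list score, the mean of the members' centred log2 values, were -0.89 to 0.04 and 0.21 to 0.49.

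Photoreceptor genes fell as a group, 20 of 21 with a median of -0.83, where 30.3% of all genes fell. Their days were less cleanly separated than those of neuron genes. Every day 1 sample was below every day 2 sample for 1 of the 21, against 8.9% over all genes. The list scores overlapped as well, at -1.12 to 0.25 on day 1 and 0.11 to 0.70 on day 2. GNAT2, the cone transducin subunit, had 3625 to 14830 normalized counts (median 7017) on day 1, against 13024 to 23432 (median 16227) on day 2 (-1.25, SE 0.18, adjusted p = 2.3e-05). The ranges overlapped through the highest day 1 sample, WT vehicle replicate 1. The cone arrestin gene ARR3 (ENSDARG00000056511) had 3175 to 20382 on day 1, against 16876 to 23432 on day 2 (-1.37). PDE6C, the cone phosphodiesterase and the list's largest fall, was at -1.65, and the blue cone opsin opn1sw2 was at -0.63. These members had the same direction. The remaining member, the green cone opsin opn1mw2, was at -0.26 and did not pass.

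Lens genes were divided. Of 41 tested, 14 fell and 5 rose (median -0.25). The share that fell, 34.1%, was close to the 30.3% over all genes, and the share that rose was 12.2%, against 32.7%. The beta-crystallin genes made up most of the falls. CRYBB1 had 11412 to 47665 normalized counts (median 13461) on day 1, against 37956 to 47665 (median 42811) on day 2 (-1.18, adjusted p = 0.00063), and crybb1l1 was at -0.95. Gamma-crystallins of the tandem crygm2d family lay on both sides of 0, from -0.34 for crygm2d3 to 0.46 for crygm2d12, and reads from such near-identical copies may have been split between them in counting.

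Other neural and sensory lists did not move one way. The shares that rose and fell were 30.8% and 15.4% for myelin, 37.5% and 12.5% for radial glia and 33.3% and 20% for hair cell genes. Over all genes they were 32.7% and 30.3%. Myelin genes had 4 that rose and 2 that fell among 13, and radial glia genes had 3 that rose and 1 that fell among 8. The radial glia medians were 0.60 in klf9-/- cortisol and 0.32 in WT cortisol larvae, against -0.11 in klf9-/- vehicle and -0.13 in WT vehicle larvae. The treatment difference was called positive for 5 of the 8, where 10.0% of all genes were called positive and 11.1% negative. Both genes of myelin basic protein rose. mbpa had 1494 to 4129 normalized counts (median 2756) on day 1, against 1367 to 1820 (median 1623) on day 2 (0.70), and its day difference was larger in cortisol than in vehicle larvae by 1.26 (SE 0.18, adjusted p = 0.0012). The oligodendrocyte factor OLIG2 fell by 0.54 on the log2 scale. Of the radial glia genes, ptgdsb.1, a prostaglandin D synthase gene, rose by 0.51. Hair cells, the receptors of the ear and lateral line, had 5 genes that rose and 3 that fell among 15. The small calcium-binding protein genes pvalb9 (448 to 1029 on day 1, against 370 to 450 on day 2, log2 difference 0.89) and s100t (0.55) rose. The cadherin gene CDH23 of the hair bundle tip link fell by 0.76 and the ferlin gene OTOF (one of 2 copies) fell by 0.74.

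**Figure D2:**
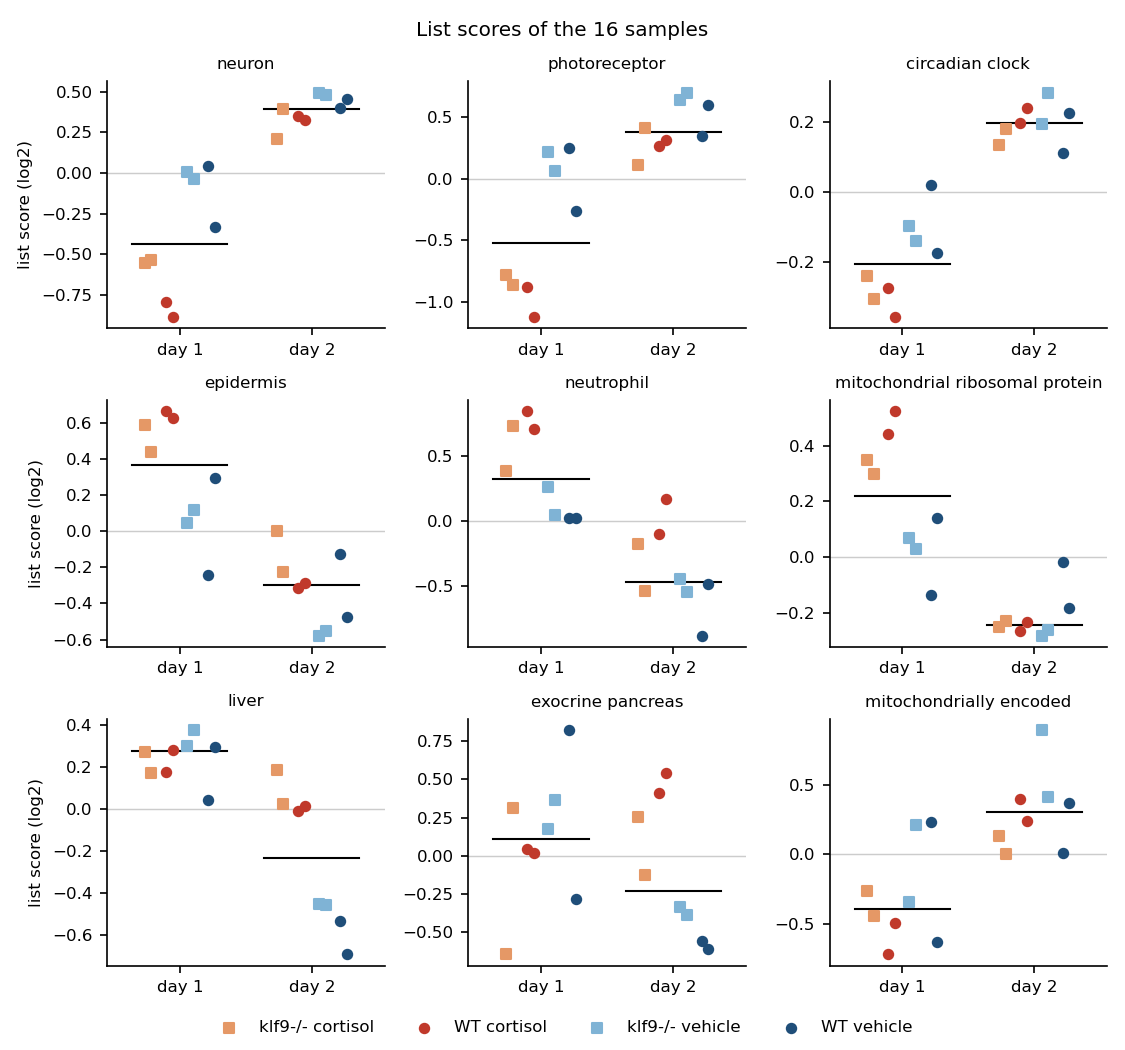
Score of 9 lists in each of the 16 samples, day 1 on the left and day 2 on the right, with colour and shape for the condition and a bar at the median of each day. The score is the mean over the list's genes of log2 values centred on each gene's mean. Neuron and circadian clock scores do not overlap between the days, whereas liver and exocrine pancreas scores overlap.

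Skin genes moved the other way, although the day ranges overlapped for every epidermis gene. Over all genes, every day 1 sample was above every day 2 sample for 2.79%. Of 31 epidermis genes, 26 rose and none fell, where 32.7% of all genes rose and 30.3% fell. Their median was 0.65, with 0.65 in klf9-/- cortisol, 0.92 in WT cortisol, 0.62 in klf9-/- vehicle and 0.37 in WT vehicle larvae. AGR2, a protein disulfide isomerase of mucus-secreting cells, had 348 to 1148 normalized counts (median 788) on day 1, against 214 to 524 (median 236) on day 2 (1.43, SE 0.18, adjusted p = 7.7e-06). The highest day 2 value was that of klf9-/- cortisol replicate 3, and the next highest was 327. The annexin gene ANXA1 (0.96), the tight junction claudin cldn1 (0.97) and the intermediate filament linker gene PPL (0.57) rose as well. The abundant keratins, whose values lie in the stepped range, were less clear. krt5 had 29419 to 121468 on day 1, against 37956 to 71716 on day 2 (0.65, adjusted p = 0.027), with a difference of -0.48 within WT vehicle larvae, and krt17 was at 0.35 and did not pass. Ionocytes, the ion-transporting cells of the skin, had 10 genes that rose and 4 that fell among 17 (58.8% and 23.5%). Their fate regulator foxi3a had 105 to 210 on day 1, against 53 to 119 on day 2 (0.98), and the sodium pump gene atp1a1a.2 rose by 0.75. The 4 that fell were both copies of the proton pump subunit ATP6V1A (-0.64 and -0.44), the cotransporter gene slc12a10.3 (-0.42) and the calcium pump gene ATP2B1 (-0.32). Pigment cell genes had 18 that rose and 1 that fell among 23, with TYRP1 (ENSDARG00000056151), a melanin synthesis enzyme gene, at 0.30 and the melanosome matrix gene pmela at 0.32.

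Genes of fibroblasts and bone also rose. Of 17 fibroblast and dermis genes, 12 rose and none fell (median 0.49), and of 10 bone genes 7 rose and none fell (median 0.47). The shares of all genes that rose and fell were 32.7% and 30.3%. The actinodin genes of the larval fin fold were the largest rises of the first list, and and3 had 774 to 3068 normalized counts on day 1, against 404 to 2140 on day 2 (1.33). Its most abundant members, the type I collagen genes col1a1a (-0.20) and COL1A1 (ENSDARG00000035809, -0.18), did not pass, and both lay in the stepped range. COL10A1, a collagen of osteoblasts and hypertrophic cartilage, had 1002 to 3368 (median 1709) on day 1, against 442 to 2644 (median 631) on day 2 (1.27, SE 0.30, adjusted p = 0.0017). The highest day 2 sample was again klf9-/- cortisol replicate 3, and the difference within klf9-/- cortisol larvae was -0.08. SPARC, a collagen-binding matrix protein gene, was at 0.12 and did not pass. scpp5, of the secretory calcium-binding phosphoproteins of mineralized tissue, had 98 to 308 on day 1, against 35 to 182 on day 2 (1.57).

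Of 22 cartilage genes tested, 12 rose and 5 fell (median 0.26), or 54.5% and 22.7%, against 32.7% and 30.3% over all genes. MATN1, a cartilage matrix adaptor protein gene, had 1141 to 2042 normalized counts on day 1, against 728 to 985 on day 2 (1.03), and MIA, a small secreted cartilage protein gene, had 62 to 164 on day 1, against 38 to 56 on day 2 (1.14). Neither overlapped between the days. Fibrillar collagen genes were among those that fell. COL2A1 (ENSDARG00000069093) had 8356 to 23442 (median 17613) on day 1, against 23442 to 37956 (median 27956) on day 2 (-0.89, adjusted p = 0.00025), and COL11A1 had 7040 to 15577 on day 1, against 12084 to 20382 on day 2 (-0.50), whereas the other copy of COL2A1 was at 0.15 and did not pass. The other 3 that fell were a collagen IX chain (col9a1b), another collagen XI chain (COL11A2) and the aggrecan core protein gene acanb.

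Fast skeletal muscle had 12 genes that rose and 12 that fell among 35 (median 0.05), or 34.3% each way, close to the 32.7% and 30.3% over all genes. The largest falls of all named genes were fast myosin heavy chains. myhz1.3 had 8734 to 121468 normalized counts (median 10704) on day 1, against 37956 to 121468 (median 121468) on day 2, and myhz2 had 8730 to 71694 (median 16495) on day 1, against 37939 to 121446 (median 71694) on day 2. Their differences were -2.62 (SE 0.36, adjusted p = 1.6e-05) and -2.09 (SE 0.30, adjusted p = 2.3e-05). These genes lie in a tandem cluster with near-identical copies, so that the split of reads between them is uncertain, and another copy, myhz1.1, was at 187032 in every sample. Values of myhz1.3 and myhz2 lay in the stepped range, and in both the highest day 1 value was that of WT vehicle replicate 1. The giant sarcomere protein genes NEB and TTN also fell. NEB (nebulin) had 12084 to 37939 on day 1, against 37939 to 71694 on day 2 (-1.23), and TTN (titin, ENSDARG00000000563) had 7872 to 10704 on day 1, against 12088 to 26492 on day 2 (-0.82). Some troponin genes and a parvalbumin gene rose. The troponin I gene TNNI2 (ENSDARG00000045592) had 592 to 1333 on day 1, against 286 to 530 on day 2 (1.29, SE 0.10), with no overlap, the troponin C gene tnnc2.1 rose by 0.84 and the parvalbumin gene pvalb3 by 1.02. Of the 2 most abundant members, pvalb2 was at -0.39 (adjusted p = 0.047) and the calcium pump gene atp2a1 at -0.35 (not called), with atp2a1 at the shared highest value in most samples.

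**Figure D3:**
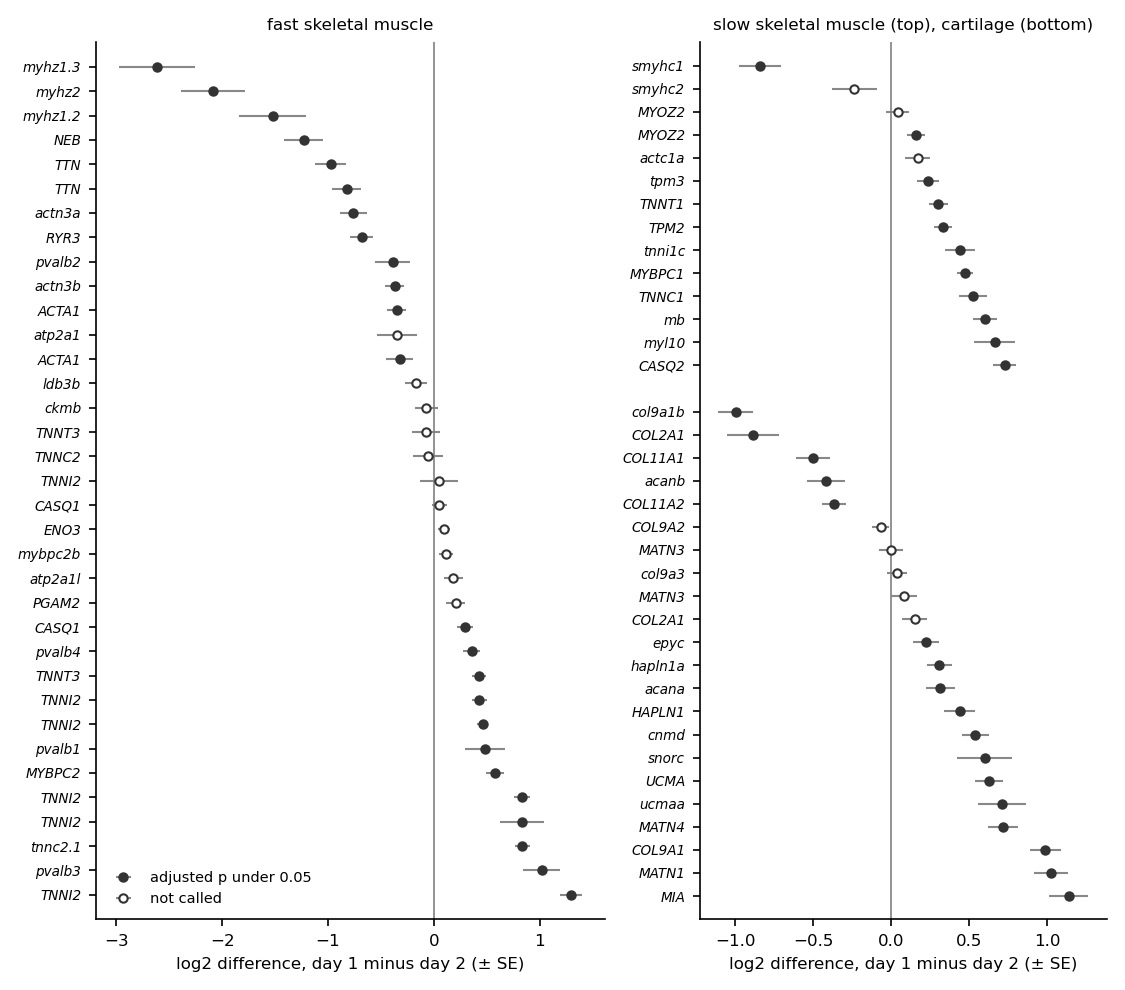
Log2 difference of each tested gene of the muscle and cartilage lists, day 1 minus day 2, with bars of 1 SE. Filled points passed at an adjusted p under 0.05. Myosin heavy chains, NEB, TTN, COL11A1 and COL11A2 lie below 0, and MATN1, MIA, pvalb3 and the copies of TNNI2 lie above, 1 of the TNNI2 copies without passing the test.

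In slow muscle, 10 of 14 genes rose and 1 fell (median 0.32), where 32.7% of all genes rose and 30.3% fell. The gene that fell was the slow myosin heavy chain smyhc1, with 4202 to 11406 normalized counts on day 1, against 9630 to 12084 on day 2 (-0.84), whereas the tropomyosin gene tpm3 had 9118 to 9993 on day 1, against 6814 to 10699 on day 2 (0.24). The score of the slow muscle list was the only one of the 39 in which all day 1 samples (0.08 to 0.20) lay above all day 2 samples (-0.25 to 0.03). Heart genes had 6 that rose and none that fell among 11. MYL7, a cardiac myosin light chain gene, had 378 to 601 on day 1, against 288 to 383 on day 2 (0.53, SE 0.07), the atrial peptide gene nppa was at 0.71, and actn2b, an alpha-actinin gene, did not pass at 0.00. The median of the heart list was 0.53, with -0.11 within klf9-/- cortisol larvae. The heart score of klf9-/- cortisol replicate 3 was 0.51, against -0.56 to -0.13 in the other 7 day 2 samples.

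Blood, vessel and immune cell genes rose, although the day ranges overlapped for every neutrophil, macrophage and erythroid gene. Every day 1 sample was above every day 2 sample for 2.79% of all genes. Among all genes, 32.7% rose and 30.3% fell. Of 14 neutrophil genes 11 rose and none fell (median 0.69), and of 26 macrophage genes 22 rose and none fell (median 0.52). Of 25 endothelial genes 17 rose and 1 fell (median 0.28), and of 16 erythroid genes 9 rose and none fell (median 0.45). The erythroid medians were 0.60 in klf9-/- cortisol and 0.68 in WT cortisol larvae, against 0.16 in klf9-/- vehicle and 0.10 in WT vehicle larvae. nccrp1, one of the 2 most abundant of the neutrophil list, had 396 to 880 normalized counts (median 664) on day 1, against 260 to 410 (median 325) on day 2 (0.96, SE 0.11, adjusted p = 3.7e-06). The ranges overlapped by little. Lysozyme (lyz) had 322 to 920 on day 1, against 219 to 547 on day 2 (1.01), and the macrophage perforin gene MPEG1 (ENSDARG00000055290) had 51 to 127 on day 1, against 30 to 80 on day 2 (0.82). LTA4H, of leukotriene synthesis, rose by 0.55, the macrophage colony-stimulating factor receptor gene csf1ra by 0.53, and the apolipoprotein gene apoeb by 0.58. tcnba, of the transcobalamin family of vitamin B12 carriers, had 222 to 621 on day 1, against 64 to 234 on day 2 (1.53, SE 0.09), the smallest standard error among the 8 largest rises. In vessels, the receptor tyrosine kinase gene kdrl had 320 to 412 on day 1, against 282 to 336 on day 2 (0.31), and robo4, a guidance receptor gene, fell by 0.23. Among red cell genes, the ammonium channel gene RHAG had 2832 to 6196 on day 1, against 1992 to 3948 on day 2 (0.66), and the alpha globin gene hbae3 was at 0.50 (adjusted p = 0.018), with globin copies too alike for reads to be assigned with certainty.

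The digestive organs differed between days in a way that depended on treatment. Liver genes rose in 31 of 40 and fell in 1, with medians of 0.10 in klf9-/- cortisol and 0.16 in WT cortisol larvae, against 0.80 in klf9-/- vehicle and 0.78 in WT vehicle larvae. The day difference was smaller or more negative under cortisol for 26 of the 40 and larger for none at an adjusted p under 0.05, where 11.1% of all genes were called negative and 10.0% positive. Exocrine pancreas genes rose in 5 of 21 (23.8%) and fell in none, against 32.7% and 30.3% over all genes. Their medians were -0.18 and -0.56 in klf9-/- and WT larvae in cortisol, against 0.63 and 0.94 in klf9-/- and WT larvae in vehicle. The treatment difference was called negative for 13 of the 21. Intestine genes rose in 19 of 32 and fell in 1, with 17 called negative and 2 positive. These lists therefore stood higher on day 1 mainly in vehicle larvae. The fibrinogen gene FGG, of blood clotting, had 1921 to 3366 normalized counts on day 1, against 830 to 3175 on day 2 (0.97, treatment difference -0.79). The apolipoprotein gene apoa2 had 23432 to 26483 on day 1, against 16876 to 26483 on day 2 (0.30, adjusted p = 0.0092), and apoa1b, in the stepped range, was at 0.34 and did not pass, with a treatment difference of -0.98. FABP2, which carries fatty acids in enterocytes, had 6194 to 9118 on day 1, against 3625 to 8350 on day 2 (0.51). Its difference was 0.53 in klf9-/- cortisol and -0.23 in WT cortisol larvae, against 1.04 in klf9-/- vehicle and 0.70 in WT vehicle larvae. chia.2, a gut chitinase gene, was at -0.49 and -0.58 in klf9-/- and WT larvae in cortisol, against 0.28 and 0.54 in klf9-/- and WT larvae in vehicle (treatment difference -0.94, SE 0.12, adjusted p = 0.00081). The trypsin genes prss59.2 (0.39, called) and prss1 (-0.10, not called) had treatment differences of -0.71 (adjusted p = 0.036) and -0.82 (adjusted p = 0.053). The amylase gene amy2a, the largest rise of the exocrine pancreas list, rose by 0.79. In kidney, 6 of 23 genes rose (26.09%) and 3 fell (13.04%), both below the 32.7% and 30.3% over all genes. The treatment difference was called negative for 8 of the 23. The proximal tubule scaffold gene pdzk1, also expressed in gut, was at 0.15 and not called, with a treatment difference of -1.11 (SE 0.13, adjusted p = 0.00038), and the cadherin gene CDH17 was at 0.16, with a treatment difference of -0.87.

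Endocrine genes were divided by gene. POMC, the precursor of ACTH and melanocyte-stimulating hormone, had 25 to 90 normalized counts (median 47) on day 1, against 5 to 44 (median 10.5) on day 2 (2.1, SE 0.26, adjusted p = 7.4e-06). The growth hormone gene gh1 had 71 to 299 on day 1, against 35 to 118 on day 2 (0.84), and the prolactin gene prl, at 0 to 18 counts over all samples, was at 2.01 (SE 0.60), a size that depends on the 0.1 added before log2. These 3 pituitary hormone genes were the rises in a list of 6, in which CGA (0.39) and the lens and pituitary factor gene pitx3 (-0.10) were not called. PCSK1, the prohormone convertase gene expressed in many neuroendocrine cells, had 424 to 735 on day 1, against 805 to 966 on day 2 (-0.61), so that it went down without overlap. In the endocrine pancreas 5 of 11 genes rose (45.5%) and 4 fell (36.4%), against 32.7% and 30.3% over all genes. Islet hormones rose, with ins at 145 to 224 on day 1, against 62 to 166 on day 2 (0.56), and the somatostatin gene sst1.2 at 68 to 173 on day 1, against 26 to 68 on day 2 (1.23). The 4 that fell were genes shared with neurons, namely pcsk1nl (732 to 1159 on day 1, against 1367 to 1747 on day 2, -0.71), ISL1 (-0.61), the transcription factor gene NEUROD1 (-0.51) and the convertase gene PCSK2 (-0.24). TG, thyroglobulin of the thyroid follicle, had 95 to 182 on day 1, against 24 to 102 on day 2 (1.67, SE 0.18, adjusted p = 2.5e-06), the highest day 2 value being klf9-/- cortisol replicate 3. The hatching enzyme genes he1.1 (2 to 279 on day 1, against 0 to 59 on day 2, log2 difference 3.55, SE 0.76) and he1.2 (2.72, SE 0.61) rose at low counts that include 0, where the size of the difference depends on the 0.1 added before log2, and the tetraspanin gene CD63, listed with the hatching gland, rose by 0.53. The lipoprotein gene apobb.1, listed with both yolk and liver and the 1 liver gene that fell, was at -0.69 with an unrounded adjusted p just under 0.05. Its difference was 0.77 within WT vehicle larvae, with a treatment difference of -1.92.

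**Figure D4:**
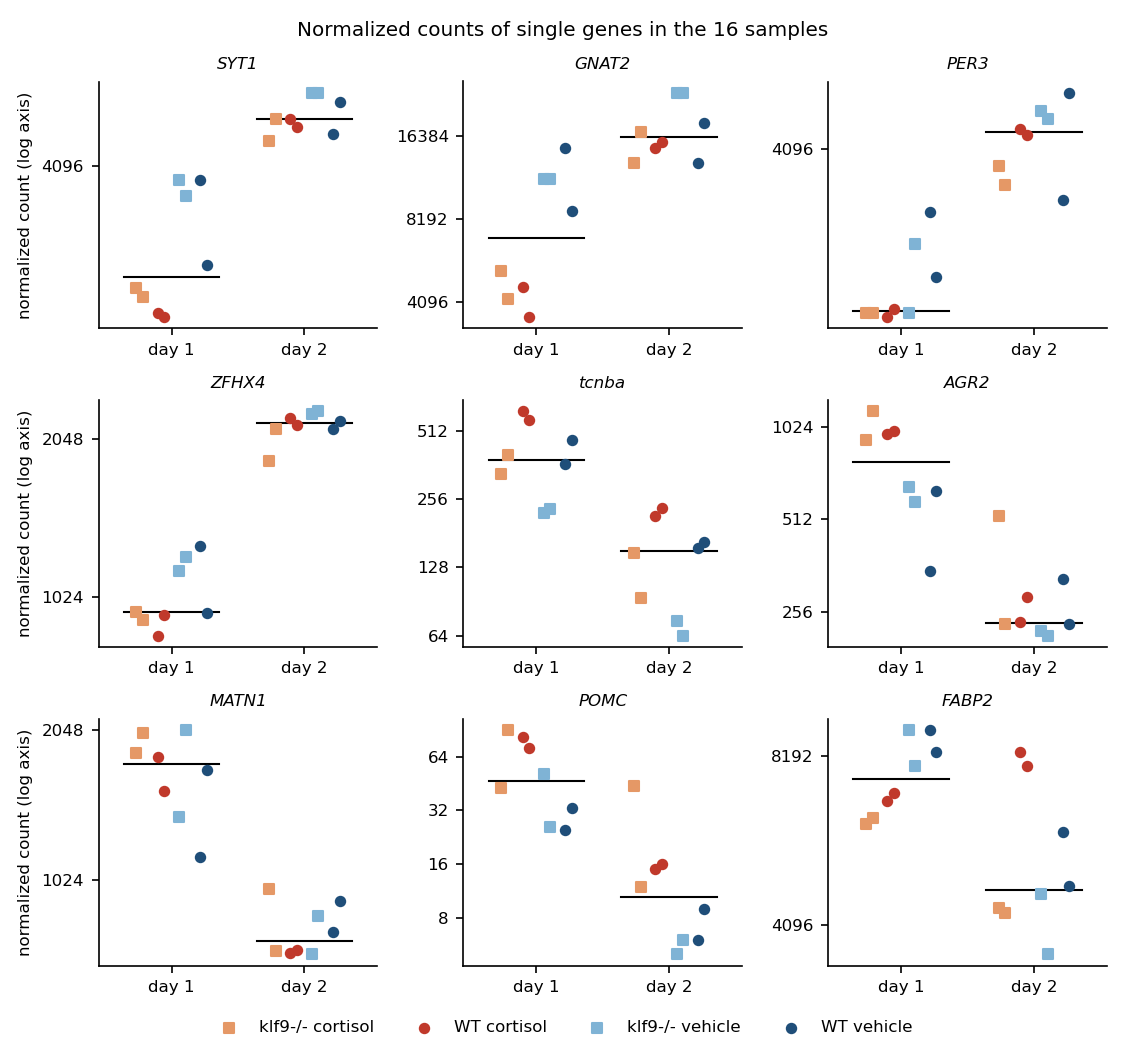
Normalized counts (log axis) of 9 genes in each of the 16 samples, day 1 left and day 2 right, with colour and shape for the condition. SYT1, GNAT2, PER3 and ZFHX4 lie lower on day 1, and tcnba, AGR2, MATN1, POMC and FABP2 lie higher. SYT1, PER3, ZFHX4 and MATN1 have no overlap between days.

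Outside the tissue markers, genes for the machinery of energy and protein production rose together. Among all genes, 32.7% rose and 30.3% fell. Of 75 mitochondrial ribosomal protein genes 71 rose and none fell (median 0.44), of 77 cytosolic ribosomal protein genes 58 rose and none fell (median 0.35), of 78 nuclear genes of the respiratory chain 70 rose and 3 fell (median 0.47), and of 42 proteasome genes 35 rose and 2 fell (median 0.43). MRPL38 had 530 to 934 normalized counts on day 1, against 455 to 512 on day 2 (0.58, SE 0.09, adjusted p = 3.5e-05), without overlap. MRPL16 had 530 to 912 on day 1, against 442 to 554 on day 2 (0.54). The medians of these 4 lists were higher under cortisol than under vehicle, with a smaller gap in klf9-/- than in WT larvae. Respiratory chain medians were 0.64 and 0.80 in klf9-/- and WT larvae in cortisol, against 0.38 and 0.11 in vehicle. Proteasome medians were 0.41 and 0.69 in klf9-/- and WT larvae in cortisol, against 0.40 and 0.16 in vehicle. The cytosolic ribosomal protein median in klf9-/- larvae was 0.44 in cortisol and 0.34 in vehicle. The treatment difference was called positive for 49 mitochondrial ribosomal protein genes, 26 cytosolic ribosomal protein genes, 49 respiratory chain genes and 17 proteasome genes, and negative for 2 genes, both of the respiratory chain, where 10.0% of all genes were called positive and 11.1% negative. Within WT vehicle larvae the median of the cytosolic ribosomal protein list was 0.00. Some of its genes, such as RPS2, were tied there between the days. RPS9 (1.16) and RPS2 (0.73) rose in the stepped range. ATP5PB, a stalk subunit of ATP synthase, rose by 0.31, and PSMC4, an ATPase of the proteasome's regulatory particle, rose by 0.30. The members that fell were ATP5F1B, the catalytic beta subunit of ATP synthase (-0.56), SDHA (-0.23) and NDUFS1 (-0.14) in the respiratory chain and both copies of PSME4, a large proteasome activator (-0.84 and -0.30). PSMD1, a large scaffold of that particle, was at -0.06 and did not pass. Transcripts encoded by the mitochondrial genome went down instead. Of 12 tested, 10 fell and none rose (median -0.59). MT-CO3, a cytochrome oxidase subunit gene, had 29419 to 121468 (median 59691) on day 1, against 121468 in all 8 day 2 samples (-1.04, SE 0.26, adjusted p = 0.0028), and MT-CO2 was at 0.04 and did not pass.

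Translation factor and splicing genes moved in both directions. The shares that rose and fell were 55.1% and 18.4% for translation factor and 36% and 16% for splicing genes, against 32.7% and 30.3% over all genes. Of 49 translation factor genes 27 rose and 9 fell, and of 50 splicing genes 18 rose and 8 fell. EEF1G, an elongation factor subunit gene, rose by 0.97, and the scaffold gene EIF4G1 fell by 0.23. The most abundant, eef2b (-0.29) and TPT1 (0.06), did not pass. Among splicing genes the core snRNP protein SNRPE had 248 to 590 normalized counts on day 1, against 237 to 299 on day 2 (0.71), the spliceosomal helicase SNRNP200 had 688 to 1430 on day 1, against 1463 to 1842 on day 2 (-0.66), the RNA-binding protein gene HNRNPAB (ENSDARG00000007960) fell by 0.32, and SF3B1 was at -0.03.

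Genes of the circadian clock were lower on day 1. Of 33 tested, 24 fell and 2 rose (median -0.41), or 72.7% and 6.1%, against 30.3% and 32.7% over all genes. For 10, every day 1 sample was below every day 2 sample, against 8.9% of all genes. In 1 gene every day 1 sample was above, against 2.79% of all genes. PER3, a clock repressor gene, had 2310 to 3304 normalized counts (median 2356) on day 1, against 3438 to 4958 (median 4340) on day 2 (-0.71, SE 0.08, adjusted p = 5.2e-06), and PER2, a light-induced repressor gene, had 2488 to 4540 on day 1, against 4203 to 6196 on day 2 (-0.63). The activators moved with the repressors. CLOCK (ENSDARG00000011703) had 50 to 88 on day 1, against 98 to 115 on day 2 (-0.82), and BMAL1 (ENSDARG00000035732) had 50 to 96 on day 1, against 106 to 134 on day 2 (-0.66). The 2 that rose were NFIL3 (0.18) and cry5 (0.19). All 16 pools had been frozen within 22 min of each other, on 1 morning, and why these genes differed was not tested.

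Stress-response and growth lists were mixed. Over all genes 32.7% rose and 30.3% fell. The shares were 36.4% and 30.3% for immediate early genes, close to those over all genes. They were 33.3% and 21.2% for heat shock genes and 20% and 32.5% for cell cycle genes. Immediate early genes, which neuronal activity and stress switch on within minutes, had 12 that rose and 10 that fell among 33 (median 0.02). The falls included the neuronal gene NPAS4 (ENSDARG00000087753, 2 to 6 normalized counts on day 1, against 6 to 14 on day 2, -1.33) and EGR3 (18 to 66 on day 1, against 52 to 84 on day 2, -1.03). The rises included klf2a (0.64) and the matricellular gene CCN2 (0.41), and JUN was at 0.13 and did not pass. Heat shock genes had 11 that rose and 7 that fell among 33, with the abundant HSP90AB1 (-0.22) and HSPA5 (0.11) not called. HSP90AB1 was at -0.77 and -1.45 in klf9-/- and WT larvae in cortisol, against 0.67 and 0.67 in klf9-/- and WT larvae in vehicle (treatment difference -1.79, adjusted p = 0.0026). Cell cycle genes had 8 that rose and 13 that fell among 40. The kinetochore gene CENPF had 86 to 292 on day 1, against 267 to 350 on day 2 (-0.92), the chromatin protein gene HMGB2 had 1802 to 2735 on day 1, against 1545 to 1991 on day 2 (0.45), and tuba8l4 was at 0.10, not called. Histone genes had 5 that rose and 1 that fell among 10, the fall being histh1l1 (-0.33), and h3f3d at -0.08 did not pass. Glycolysis genes had 5 that rose and 16 that fell among 33 (median -0.15). The 2 glyceraldehyde-3-phosphate dehydrogenase genes went opposite ways. GAPDHS had 11406 to 71694 on day 1 (median 16495), against 37939 to 47652 on day 2 (median 47652, -1.23), and GAPDH had 37956 to 121468 on day 1 (median 121468), against 23442 to 121468 on day 2 (median 37956, 1.18). Both lay in the stepped range, and WT vehicle replicate 1 held the extreme day 1 value of both. The falls also included the brain aldolase ALDOC (-0.95 and -0.83 for 2 copies) and the neuronal enolase eno2 (-0.74).

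The remaining genes with the largest changes have little annotation. si:dkey-239b22.2 had 114 to 282 normalized counts on day 1, against 29 to 251 on day 2 (1.77), zgc:111983 had 1296 to 5090 on day 1, against 450 to 1560 on day 2 (1.51), ENSDARG00000109310 had 200 to 766 on day 1, against 66 to 263 on day 2 (1.49), and si:dkey-247k7.2 had 813 to 6817 on day 1, against 455 to 1725 on day 2 (1.41). Among the falls, si:ch211-129p13.1 had 23 to 116 on day 1, against 172 to 262 on day 2 (-1.99), si:ch211-239d6.4 had 20 to 76 on day 1, against 90 to 187 on day 2 (-1.82), and si:ch211-136a13.3 had 31 to 87 on day 1, against 121 to 189 on day 2 (-1.76). The 3 that fell had no overlap between days, and those that rose overlapped in each case.

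The size of the day difference depended on treatment in the fit of all 16 samples. The median absolute log2 difference over all genes was 0.37 in klf9-/- cortisol and 0.49 in WT cortisol larvae, against 0.29 in klf9-/- vehicle and 0.27 in WT vehicle larvae. Within a condition, 2 samples against 2 with the spread pooled, 9006 genes were called in klf9-/- cortisol (41.9%) and 11666 in WT cortisol larvae (54.3%), against 5727 in klf9-/- vehicle (26.7%) and 5005 in WT vehicle larvae (23.3%). The test of the difference itself, cortisol minus vehicle, called 2155 genes positive and 2383 negative. With only the 8 klf9-/- samples it called 2 positive and 11 negative, and with only the 8 WT samples 797 and 865. With samples centred on their 1715 most abundant genes in place of the deposited scaling, 3236 were positive and 1594 negative. Without WT vehicle replicate 1 and klf9-/- cortisol replicate 3, 1327 were positive and 1713 negative. The count without WT cortisol replicate 4 was 1315 positive and 1489 negative, and the positive count was 1372 without WT vehicle replicate 3 and 1400 without klf9-/- cortisol replicate 1.

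The genes with the largest treatment dependence were of several kinds. RRM2, a subunit of ribonucleotide reductase needed for DNA synthesis, differed between days by 2.16 in klf9-/- cortisol and 0.37 in WT cortisol larvae, against -0.09 in klf9-/- vehicle and -0.43 in WT vehicle larvae (treatment difference 1.53, SE 0.26, adjusted p = 0.0023). The genes si:ch211-281l24.3 (2.27), si:ch211-255p10.3 (1.52) and si:dkey-247k7.2 (1.48) were the other positive ones. On the negative side stood the chymotrypsin-like protease gene ctrl of the exocrine pancreas (-2.17), the lens filament gene BFSP1 (-2.16), vwa11 (-2.14) and the complement regulator gene cfh (-2.01, SE 0.19, adjusted p = 0.00011). cfh differed between days by -0.30 in klf9-/- cortisol and 0.00 in WT cortisol larvae, against 1.62 in klf9-/- vehicle and 2.1 in WT vehicle larvae. Neuron and photoreceptor genes followed treatment in their size and not in their direction. Their medians were -0.84 and -1.05 in klf9-/- cortisol and -1.17 and -1.24 in WT cortisol larvae. In vehicle they were -0.49 and -0.56 in klf9-/- and -0.53 and -0.50 in WT larvae. The treatment difference was called negative for 19 of 30 and 14 of 21. Over all genes, 11.1% were called negative and 10.0% positive in that test.

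No gene's day difference was called different between klf9-/- and WT larvae by limma, with 1236 genes (5.75%) at an unadjusted p under 0.05. Leaving out single samples gave 0 to 8 positive and 0 to 2 negative calls, with the 8 found without WT cortisol replicate 2.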

How the data were processed

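RNA of 16 pools of 5-day-old zebrafish larvae was purified with a Qiagen column kit and sequenced single-end after polyA selection. The sources and processing notes name Trimmomatic 0.38, STAR 2.6.1b, RSEM 1.3.0, R 3.6.1 and the GRCz11 build. The deposited table, made by the authors, holds log2 values of normalized counts plus 0.1 for 22994 genes. They were corrected for GC content within each library and fully quantile-normalized between libraries with EDASeq, so that all 16 samples hold the same sorted values. Differences in total RNA or depth can therefore not be seen, and ties among abundant genes appear as steps. No count test was run, because these values are not raw counts. Without depth, no counting interval was given.

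The 21479 genes that averaged 5 or more normalized counts and were not constant were tested with limma 3.58.1 (R 4.3.3) on the deposited log2 scale, with a trended variance prior, the 4 conditions as covariate and Benjamini-Hochberg adjustment at 0.05, two-sided. Where samples are at or near 0, the size of a difference on that scale depends on the 0.1 added. Differences within a condition and by treatment or genotype came from a model with a mean for each condition and day. The fit was tested on simulated data. Figures were drawn with matplotlib 3.10.9. Treatment difference means the day difference in cortisol minus that in vehicle larvae.

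Gene symbols came from a table matched by Ensembl ID. The 39 lists held 1311 symbols, of which 65 were left out as ambiguous and 123 were not found, and 1117 gene IDs were matched. Members and lists were chosen with earlier results of these data known. Genes named by rule were the 8 largest changes in each direction (adjusted p under 0.05, mean of at least 75, with a symbol, same sign in all 4 conditions), the 2 most abundant tested members of each list, and the 4 largest treatment or genotype differences in each direction. Alternatives changed the low-value filter, pseudocount, scaling, variance model, covariates and samples. Some genes that met these rules are not reported here. No sequence is printed, since sequences of these genes were not used here.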

Additional observations from a re-analysis of the deposited data

Results flagged for a closer look

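A total of 129 items (named genes and list scores) were checked for a sample far from the other 7 of its day. They made 258 groups of 8 samples, of which those with 8 identical values, such as MT-CO3 on day 2, could not be checked. The highest or lowest sample was set apart when its gap to the nearest other exceeded Dixon's critical share of the group's range for 8 samples. Chance alone gives this in about 5% of groups drawn from a normal distribution. The groups here mixed conditions and partly held stepped values, so that rate may not apply to them. In 34 groups a sample stood apart.

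On day 2, klf9-/- cortisol replicate 3 was high for si:dkey-239b22.2 (251 normalized counts), TG (102), AGR2 (524), COL2A1 (37956), SPARC (37939), COL10A1 (2644), col1a1a (47665), CCN2 (1400) and JUN (1238). Its scores were also high for the heart (0.51), bone (0.45) and fibroblast and dermis (0.43) lists.

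On day 1, WT vehicle replicate 1 was high for myhz1.3 (121468), myhz2 (71694), apobb.1 (37939) and GAPDHS (71694) and low for apoa2 (23432), RPS9 (29412) and GAPDH (37956). The other single high or low samples on day 1 were JUN in klf9-/- cortisol replicate 2 (1322), COL1A1 in WT vehicle replicate 2 (47665), apoa1b in WT cortisol replicate 1 (47652, low) and MT-CO2 in klf9-/- vehicle replicate 2 (71694).

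On day 2, WT vehicle replicate 4 was high for smyhc1 (12084) and ATP5F1B (20392), WT vehicle replicate 3 for RPS9 (47652) and the radial glia (0.061) and mitochondrial ribosomal protein (-0.019) lists, and klf9-/- vehicle replicate 3 for MT-CO2 (71694), TPT1 (37939) and the mitochondrially encoded list (0.89). Low samples were pvalb2 in klf9-/- vehicle replicate 4 (121468), SF3B1 in klf9-/- vehicle replicate 3 (2248) and GAPDHS in klf9-/- cortisol replicate 4 (37939). Several of these values are neighbouring steps of the shared distribution.

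The day difference of 41 named genes differed between cortisol and vehicle larvae (limma interaction, adjusted p under 0.05, log2 scale, cortisol minus vehicle). Among neural and eye genes the values were -0.46 for SYT1, -1.67 for ARR3, -1.03 for GNAT2, -1.20 for CRYBB1, -1.16 for crybb1l1, -2.16 for BFSP1, -0.57 for PCSK1, 1.26 for mbpa and 0.61 for pvalb9. Among muscle, skeletal and skin genes they were -0.69 for atp2a1, -0.72 for smyhc1, -1.10 for COL2A1, -0.59 for COL11A1, -1.10 for col1a1a, 1.15 for krt5 and -0.75 for atp1a1a.4. Among digestive and renal genes they were -0.98 for apoa1b, -0.42 for apoa2, -0.71 for prss59.2, -2.17 for ctrl, -0.94 for chia.2, -0.72 for FABP2, -0.87 for CDH17, -1.11 for pdzk1 and -1.92 for apobb.1. Among immune genes they were -0.34 for LTA4H, 0.53 for nccrp1 and -2.01 for cfh. For genes of general processes they were 0.49 for MRPL16, 0.46 for MRPL38, -0.92 for ATP5F1B, 0.38 for SF3B1, -1.79 for HSP90AB1 and 1.53 for RRM2. The remaining genes were si:dkey-239b22.2 (-1.20), si:dkey-247k7.2 (1.48), si:ch211-129p13.1 (-1.02), si:ch211-136a13.3 (-0.82), si:ch211-281l24.3 (2.27), si:ch211-255p10.3 (1.52) and vwa11 (-2.14).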

How the results depend on the processing

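Preparation day, delayed homogenization and place in the collection cannot be told apart, and depth is unknown. The stepped values at the top of the distribution can make small changes of abundant genes invisible or enlarge them. Under the 31 alternatives run, no gene called in both fits had the opposite sign. For many of them this was fixed in advance. In this balanced design the filter, variance trend, replicate block and covariates leave each gene's day difference unchanged. Centring on sample medians changed nothing, because all samples had the same median. Only the alternatives that changed samples, weights, pseudocount or the centring on abundant genes could alter a sign. List medians kept within the spread of the 4 condition medians in 1192 cases and moved further in 17. The median of the pituitary list was -0.10 with a minimum mean of 75, 1.22 with all genes that were not constant and 0.39 with 10 added before log2, and that of the endocrine pancreas list was -0.04 with a minimum mean of 75. The 2 alternatives chosen after seeing the data were the centring on abundant genes and the fit without WT vehicle replicate 1 and klf9-/- cortisol replicate 3.

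With only the 8 vehicle-treated samples, 3820 genes were higher and 4235 lower on day 1, and with only the 8 WT samples 4601 were higher. The treatment difference was called positive for 797 and negative for 865 genes with only WT samples, and for 2 and 11 with only klf9-/- samples. It was positive for 3236 and negative for 1594 with samples centred on abundant genes, and positive for 1327 without the 2 samples that stood apart. Array weights gave 1282 higher and 1588 lower genes within WT vehicle larvae, against 2290 and 2715. The genotype difference was called positive for 1 gene with a minimum mean of 75, for 2 without the variance trend and for 1 without the 2 samples that stood apart. Named genes that reversed were atp1a1a.4 (-0.11), CDH17 (-0.28) and pdzk1 (-0.40) with only cortisol-treated samples, and chia.2 (0.41) and apobb.1 (0.27) with only vehicle-treated samples. Of the other results for named genes, 118 fell short of the threshold that the reported fit passed, 28 passed it newly and 2948 stayed on their side. The cause of these changes was not tested, beyond the smaller number of samples.

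Leaving out each sample in turn gave 6530 to 7266 higher and 6153 to 6660 lower genes between days. The treatment difference ranged over 1315 to 3098 positive and 1489 to 3509 negative genes, and the genotype difference over 0 to 8 and 0 to 2. Without the 2 samples that stood apart, 3504 genes were higher and 3421 lower within klf9-/- vehicle and 3321 and 3648 within WT vehicle larvae. Within klf9-/- cortisol larvae the counts were 2608 to 4716 higher and 2936 to 4767 lower, the lowest without replicate 4, and 2883 higher without replicate 1. Within WT cortisol larvae they were 4418 to 6007 and 4716 to 5982. Within klf9-/- vehicle larvae they were 914 to 3336 and 872 to 3380, with 1635 and 1809 without replicate 1, 1048 and 1055 without replicate 2, and 1600 and 1492 without replicate 3. Within WT vehicle larvae they were 736 to 3147 and 535 to 3610, with 1470 and 1518 without replicate 3 and 858 and 706 without replicate 4. A condition left with 1 sample on a day takes its spread from the other groups.

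No paired analysis was possible because replicate numbers 1 and 2 are all day 1 and numbers 3 and 4 all day 2. A replicate block within each day gave 6807 genes higher and 6401 lower.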
